A study of Mus musculus with 9 samples.

Results

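The 39 genes described here make ribosomes: they transcribe ribosomal RNA, modify and cut it, and assemble it with ribosomal proteins in the nucleolus. They were chosen by name for their known roles, by a rule that uses no measured value, and all 39 were found among the 27179 gene entries counted and passed the filter on low counts that left 12004 genes for testing. The cells were AML246, a mouse acute myeloid leukaemia line on the C57BL/6 background that is p53-/- and carries shPU.1, a short hairpin RNA against the myeloid transcription factor PU.1. All 9 libraries share this genotype and culture in IL3-supplemented medium, and the clones 1, 2 and 4 were each grown from a single sorted cell of that one line. Each clone gave 1 untreated library (sorted GFPhigh), 1 after 14 days of doxycycline (sorted GFPoff) and 1 after 14 days of doxycycline, a wash and 14 days untreated (sorted GFPhigh, called washed). The effects of doxycycline, of the GFP sort and of the hairpin cannot be told apart in these groups, and clones of 1 line do not sample separate leukaemias.

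Ribosome production starts when RNA polymerase I copies the ribosomal DNA repeats into a long precursor. Small nucleolar RNAs in box C/D and box H/ACA particles guide methylation and pseudouridylation of that precursor, the small subunit processome cuts out the small subunit rRNA, and further factors such as the PeBoW complex build the large subunit. Many genes of this programme are known targets of MYC, and in blood formation they are known for high levels in growing progenitors. A level is given as CPM, read counts relative to library size and scaled by TMM, a method that aligns the bulk of genes between libraries. Levels of different genes are compared as RPKM, which also divides by the counted gene length. A gene is called at an adjusted p of 0.05 in edgeR's quasi-likelihood test, with Benjamini-Hochberg adjustment over all 12004 genes.

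Promoter sequences were available from RefSeq (GRCm38.p6) for 34 of the 39 genes, and the 250 bases before the annotated start were searched on both strands. The table held none for Npm1, Fbl, Bop1, Rrs1 and Rrp12. The motif GAGGAAGT (reverse ACTTCCTC), a core bound by PU.1 and related ETS factors, was found for 3 of the 34 genes (8.82%), against 2.79% of 27025 genes with a promoter in the table. The second ETS-type motif, CCGGAAGT (reverse ACTTCCGG), was found for 5 of 34 genes (14.7%) against 3.23%. Gar1, called below only with the clone as a block, is 1 of the 5. The others are Heatr1, Ltv1, Nhp2 and Polr1c, not called between groups with all libraries. The GGAAGT end is common to both motifs. The E-box CACGTG, the palindrome read by MYC with MAX, was found for 3 of 34 genes (8.82%) against 6.86%. The promoters below show the 3 genes with GAGGAAGT, of which Noc2l is called in the comparisons that follow and Nop14 and Wdr43 are not. They are followed by Gar1 with the second ETS-type motif and by Rrn3 and Nop2 with the E-box. All are written 5′ to 3′ on the strand of the gene, and capitals mark the motif.
Noc2l, chr4:156235765-156236014, strand plus: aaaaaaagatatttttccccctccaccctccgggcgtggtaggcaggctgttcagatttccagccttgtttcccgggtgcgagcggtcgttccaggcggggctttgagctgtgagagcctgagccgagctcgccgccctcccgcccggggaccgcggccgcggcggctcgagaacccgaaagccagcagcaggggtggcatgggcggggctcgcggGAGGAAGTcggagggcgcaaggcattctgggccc
Nop14, chr5:34660149-34660398, strand minus: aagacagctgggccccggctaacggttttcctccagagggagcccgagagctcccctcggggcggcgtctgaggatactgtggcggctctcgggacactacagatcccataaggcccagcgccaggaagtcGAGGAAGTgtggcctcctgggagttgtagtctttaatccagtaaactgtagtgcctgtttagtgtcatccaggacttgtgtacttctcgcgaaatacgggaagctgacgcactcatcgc
Wdr43, chr17:71615965-71616214, strand plus: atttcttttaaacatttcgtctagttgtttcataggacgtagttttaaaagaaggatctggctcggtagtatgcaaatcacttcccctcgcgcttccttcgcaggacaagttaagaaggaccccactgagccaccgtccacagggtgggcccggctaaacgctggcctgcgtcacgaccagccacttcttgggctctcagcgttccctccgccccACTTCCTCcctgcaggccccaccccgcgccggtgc
Gar1, chr3:129831397-129831646, strand minus: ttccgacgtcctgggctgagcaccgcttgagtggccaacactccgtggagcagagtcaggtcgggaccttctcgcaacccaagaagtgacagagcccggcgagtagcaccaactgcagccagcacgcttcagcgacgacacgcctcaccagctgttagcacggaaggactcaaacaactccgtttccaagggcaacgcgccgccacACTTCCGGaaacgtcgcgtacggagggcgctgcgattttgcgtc
Rrn3, chr16:13780449-13780698, strand plus: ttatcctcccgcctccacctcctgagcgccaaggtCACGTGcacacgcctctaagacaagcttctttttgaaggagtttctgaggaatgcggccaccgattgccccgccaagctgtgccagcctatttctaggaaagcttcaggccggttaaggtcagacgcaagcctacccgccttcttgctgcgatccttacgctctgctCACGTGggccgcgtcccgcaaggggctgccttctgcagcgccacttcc
Nop2, chr6:125131633-125131882, strand plus: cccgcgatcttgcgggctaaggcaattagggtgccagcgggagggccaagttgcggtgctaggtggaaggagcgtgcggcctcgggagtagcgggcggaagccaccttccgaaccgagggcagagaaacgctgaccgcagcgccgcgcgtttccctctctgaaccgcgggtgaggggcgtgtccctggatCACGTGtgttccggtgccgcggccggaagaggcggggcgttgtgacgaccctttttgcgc

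In Noc2l the motif begins 34 bases before the start, in Wdr43 35 bases before it on the opposite strand, and in Nop14 119 bases before it. Rrn3 holds the E-box at 215 and at 48 bases before the start. A match is a stretch of letters only, and binding was not measured here.

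Between 7408118 and 9803258 reads were counted per library. An entry without a symbol in the RefSeq table took 22.0% of the reads of untreated clone 1 and 0.153% to 1.64% of those of other libraries, so results that differ without that library are given. Spi1, the gene of PU.1 and the target of the hairpin, measured 48.1, 46.6 and 23.7 CPM before treatment in clones 1, 2 and 4, 197, 191 and 156 CPM in doxycycline and 52.0, 40.6 and 23.9 CPM after washout. The 10 myeloid markers summed to between 1897 and 4161 CPM and all were counted in each library except Cd33 in washed clone 4. One of them, the pan-leukocyte gene Ptprc, was nearly absent from the untreated and washed libraries, at 0.489 to 2.02 CPM. The 5 B cell markers summed to 0.618 to 6.18 CPM, the 4 matched erythroid markers to 0.529 to 21.4 CPM and the 5 stromal markers to at most 0.378 CPM. Of the 6 T cell markers Cd4 and Trbc2 were at 0 in all libraries, while the list summed to 8.38 to 211 CPM, nearly all of it on Cd3g.

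The first comparison asked how these genes stand in the GFPoff cells under doxycycline, where Spi1 was higher. Npm1 fell by 1.20 and Noc2l by 1.10 on the log2 scale, and both were called higher again after washout; the other members did not pass. The median log2 fold change of the 39 was -0.32, against 0.00 for all genes tested, and 33 of 39 values were negative, against 5965 of 12004. An unadjusted p under 0.05 was reached by 5 of the 39 (12.8%), against 27.2% of all genes. With library size alone as the scaling the median of the 39 was -0.045 and that of all genes 0.23. Of the 39 genes 2 (5.13%) were called lower, close to the 4.35% of all tested genes called lower, and 0 were called higher, against 6.57% of all genes (10.9% in either direction). With the clone as a block, which compares the libraries of each clone with each other, 10 of 39 (25.6%) were called lower against 11.7% of all genes, and 0 higher, against 13% (24.8% in either direction). Leaving out clone 1 gave a blocked count of 16 (41% against 16.2% of all genes in that fit), leaving out clone 2 gave 1 (2.56% against 1.98%) and leaving out clone 4 gave 1 (2.56% against 1.17%). In bulk RNA a lower level per cell and a change in which cells were present cannot be told apart.

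Marker genes moved between the same groups. Of the 10 myeloid markers, Ptprc, Spi1, Itgam, Cd33 and Fcgr3 were above untreated in doxycycline in all 3 clones, the granule genes Mpo, Elane and Prtn3 were below it in all 3, and Cebpa and Csf2rb differed between clones. Called higher by edgeR were Spi1, Ptprc (28.0 to 45.1 CPM in doxycycline), Itgam (log2 fold change 3.65 ± 0.50 SE, adjusted p = 0.0035) and Cd33 (4.75 ± 0.83 SE, adjusted p = 0.00979). The erythroid list's Epor was called lower (-2.98 ± 0.64 SE, adjusted p = 0.0208). Cd3g went from 83.1 to 163 CPM untreated to 8.38 to 38.4 CPM in doxycycline. It was called lower only with the clone as a block (edgeR adjusted p = 0.0158), as were Mpo (0.0125) and Elane (0.00516). Prtn3, Cebpa, Csf2rb and Fcgr3 were called in neither fit. Their part in the levels of the 39 genes was not tested.

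**Figure D1:**
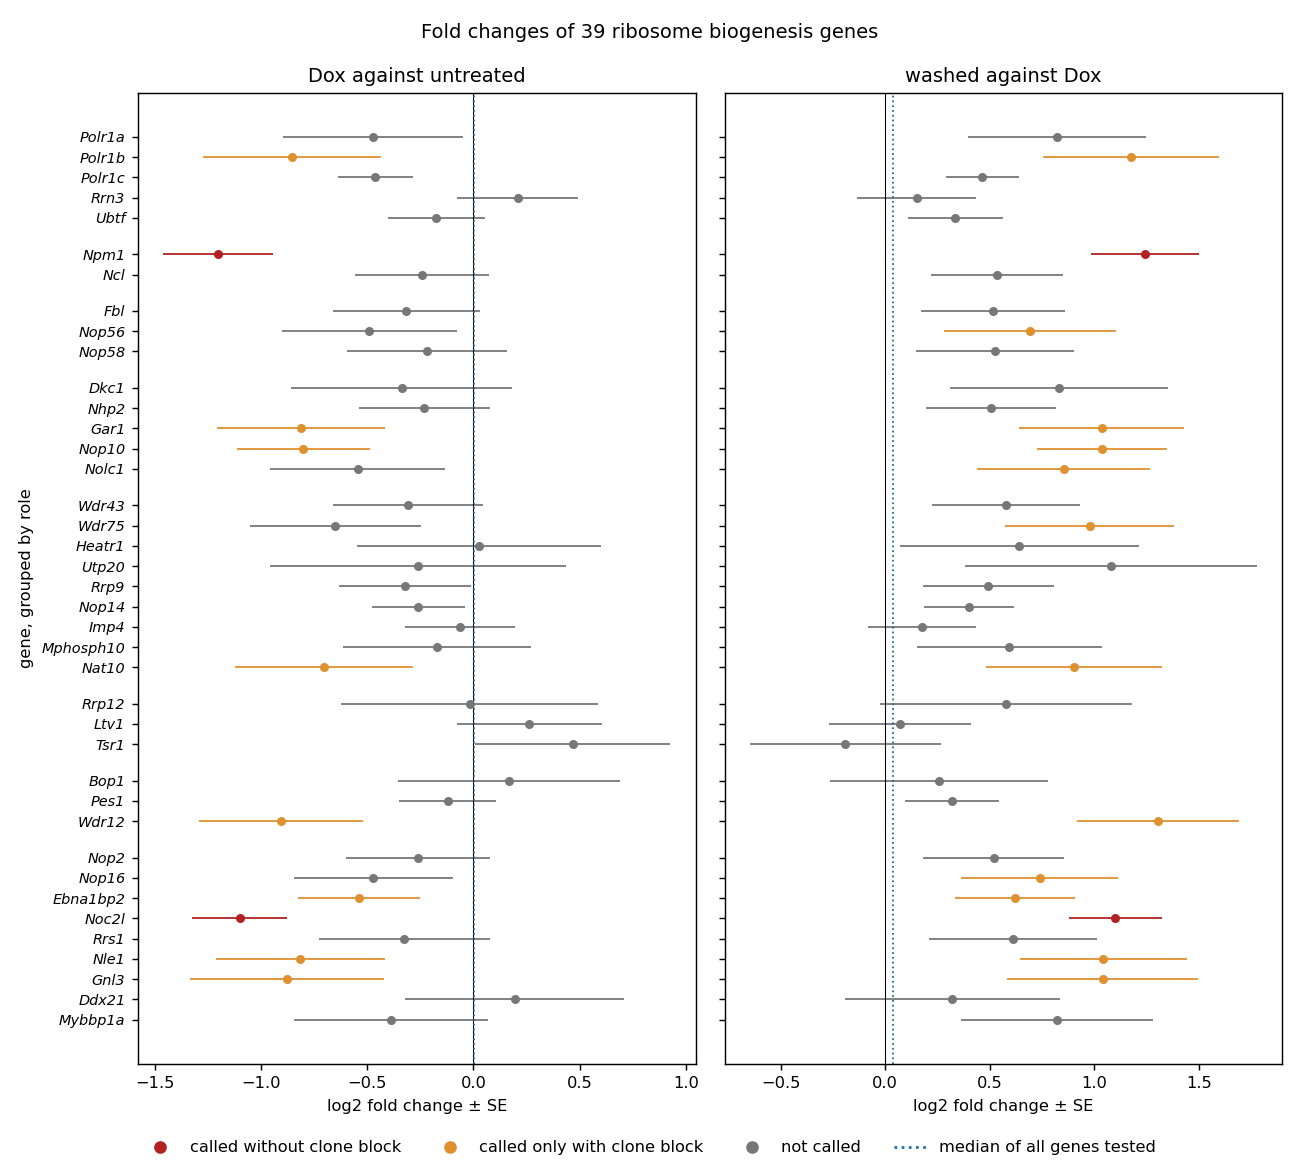
Log2 fold change ± SE (x axis) of each of the 39 genes (y axis, grouped by role) for doxycycline against untreated (left) and washed against doxycycline (right), from edgeR's quasi-likelihood fit to 3 clones per group. Npm1 and Noc2l (red) are called without the clone block, orange genes with it only and grey genes in neither fit; most points lie left of 0 in the left panel and right of 0 in the right panel, and the panels share the doxycycline libraries.

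The second comparison asked what happens when doxycycline is removed for 14 days. The same 2 genes, Npm1 and Noc2l, were called higher in washed than in doxycycline cells, 5.13% of the 39 against 3.64% of all tested genes, and 0 were called lower, against 6.02% (9.66% in either direction). The median log2 fold change was 0.61 against 0.04 for all genes, and 38 of 39 values were positive. An unadjusted p under 0.05 was reached by 25.6% of the 39 and 26.0% of all genes. The median was 0.31 without washed clone 1, a library treated below. With the clone as a block 14 of 39 (35.9%) were called higher against 10.4% of all genes, and 0 lower, against 12.4% (22.9% in either direction). Leaving out clone 1 gave a blocked count of 15 (38.5% against 17% of all genes in that fit), leaving out clone 2 gave 2 (5.13% against 1.2%) and leaving out clone 4 gave 3 (7.69% against 0.994%). Without the washed library of clone 1 alone it was 12 (30.8% against 14.8%). Both comparisons use the doxycycline libraries, so a gene low there is low against both other groups.

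Doxycycline lay below untreated in all 3 clones for 26 of the 39 genes, against 31.8% of all tested genes, and washed above doxycycline for 29, against 28.1%. Doxycycline was lowest of the 3 conditions in all 3 clones for 24 genes, against 21.9% of all tested genes. All doxycycline libraries lay below all untreated libraries for 7 of 39 genes, against 18.5% of all genes, and below all washed libraries for 5 of 39, against 11.8%. Doxycycline was therefore not wholly below the other groups for most of the 39 genes, nor for most of all genes tested. Genes with doxycycline wholly above were not counted. Within clones the median log2 ratio of doxycycline to untreated was -0.22 in clone 1, -0.65 in clone 2 and -0.24 in clone 4.

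**Figure D2:**
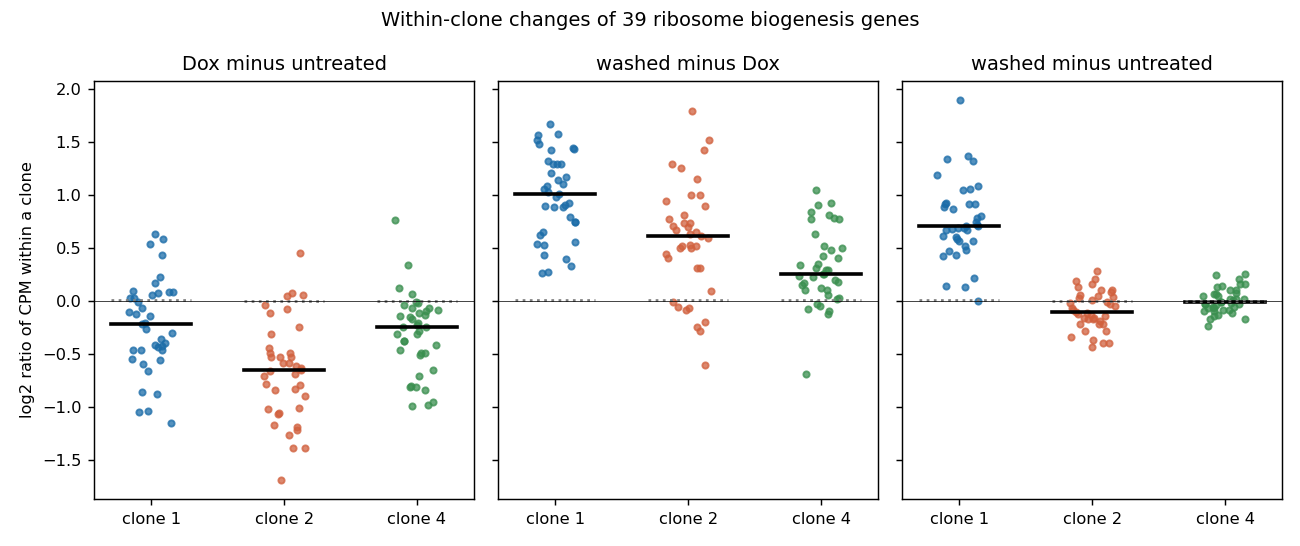
Log2 ratio of CPM between 2 libraries of the same clone (y axis) for each of the 39 genes (points), by clone (x axis) and pair of conditions (panels), with the median of the 39 as a black bar and the median of all genes tested as a dotted grey line. The median of the 39 is below 0 for doxycycline minus untreated in all 3 clones, and for washed minus untreated it is 0.71 in clone 1, -0.11 in clone 2 and -0.01 in clone 4.

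The nucleolar chaperones are Npm1 and Ncl. Npm1 (Entrez gene 18148, chromosome 11, 33152498 to 33164142 on GRCm38, the build also called mm10) encodes nucleophosmin, a histone and ribosome chaperone that is among the most often mutated genes of human acute myeloid leukaemia. In clones 1, 2 and 4 it stood at 466, 424 and 358 CPM untreated, 226, 131 and 185 CPM in doxycycline and 509.6, 455 and 318 CPM after washout. All 3 doxycycline libraries lay below all 6 others, and the clones held 0.485, 0.309 and 0.517 of their untreated level. Npm1 was lower under doxycycline than before it (log2 fold change -1.20 ± 0.26 SE, adjusted p = 0.0204) and rose after washout (log2 fold change 1.24 ± 0.26 SE, adjusted p = 0.0199) by edgeR. Its call in doxycycline against untreated was lost without clone 2 (adjusted p = 0.141), without clone 4 (0.221), without untreated clone 1 (0.083) and with scaling by library size alone (0.115), and with the block it was lost without clone 2 (0.0566) and clone 4 (0.0587). Its call after washout was lost without clone 2 (adjusted p = 0.159), without clone 4 (0.230), with library size alone (0.0645) and with the 2 groups alone (0.0746), and with the block without clone 2 (0.0658) and clone 4 (0.0553).

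Ncl encodes nucleolin, an RNA-binding protein of the nucleolus that acts in rRNA transcription and processing. It stood at 1379, 1215 and 1558 CPM untreated, 1249, 793 and 1470 CPM in doxycycline and 2376, 1291 and 1419 CPM after washout. Doxycycline clones 1 and 4 lay within the range of the untreated libraries and clone 2 below it, and Ncl was not called (log2 fold change -0.24 ± 0.31 SE, adjusted p = 0.665 by edgeR). Per length, Npm1 with a mean of 199 RPKM and Ncl with 172 RPKM were the most abundant of the 39 genes, whose means ran down to 7.88 RPKM for Utp20. The order of Npm1 and Ncl depends on their counted lengths of 1718 and 8257 bases, since Ncl had the higher CPM in each library.

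Large subunit assembly held the other called gene. Noc2l (Entrez gene 57741, chromosome 4, 156234655 to 156247616) encodes a nucleolar protein of early large subunit particles that is also known as an inhibitor of histone acetyltransferases. It stood at 183, 171 and 235 CPM untreated, 82.1, 75.02 and 117 CPM in doxycycline and 202, 167 and 220.4 CPM after washout. The doxycycline libraries lay below all others, and the clones held 0.449, 0.438 and 0.500 of their untreated level, a narrow range. Noc2l was lower under doxycycline than before it (log2 fold change -1.10 ± 0.22 SE, adjusted p = 0.0166) and rose after washout (log2 fold change 1.10 ± 0.22 SE, adjusted p = 0.019) by edgeR. The call in doxycycline was lost without clone 1 (adjusted p = 0.0736), clone 2 (0.0967) or clone 4 (0.169), without untreated clone 1 (0.0576) and with library size alone (0.114); after washout it was lost without clone 1 (0.081), clone 2 (0.113) or clone 4 (0.160), with library size alone (0.0774) and with the 2 groups alone (0.0623). With the block it stood in doxycycline also without clone 1 (adjusted p = 0.0003), clone 2 (0.0422) or clone 4 (0.0498). The Noc2l gene overlaps Klhl17, Samd11 and a lncRNA in RefSeq, and no strand setting of the counting is given in the sources used here, so reads from these genes may be included.

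Other large subunit genes were called only when clones were compared with themselves. Gnl3, the nucleolar GTPase nucleostemin of stem and cancer cells, stood at 71.7, 47.7 and 106 CPM untreated, 39.5, 22.6 and 60.5 CPM in doxycycline and 107, 42.3 and 104 CPM after washout. For Gnl3, with the block the log2 fold change was -0.92 ± 0.18 SE for doxycycline against untreated (edgeR adjusted p = 0.00891) and 1.05 ± 0.18 SE for washed against doxycycline (adjusted p = 0.00573), and without the block the adjusted p-values were 0.251 and 0.187. In each clone the doxycycline value was the lowest of the 3, but clone 4 in doxycycline lay above untreated clone 2. Nle1, a WD-repeat protein needed for large subunit release and for haematopoietic stem cells in mice, stood at 28.2, 23.3 and 48.2 CPM untreated, 15.3, 14.2 and 27.2 CPM in doxycycline and 45.7, 22.3 and 48.9 CPM after washout. For Nle1, with the block the log2 fold change was -0.81 ± 0.21 SE for doxycycline against untreated (edgeR adjusted p = 0.0243) and 1.05 ± 0.20 SE for washed against doxycycline (adjusted p = 0.00985), and without the block the adjusted p-values were 0.225 and 0.136. Ebna1bp2, an early large subunit factor, stood at 187, 136 and 197 CPM untreated, 138, 72.8 and 147 CPM in doxycycline and 217, 146 and 187 CPM after washout. For Ebna1bp2, with the block the log2 fold change was -0.58 ± 0.16 SE for doxycycline against untreated (edgeR adjusted p = 0.0329) and 0.66 ± 0.16 SE for washed against doxycycline (adjusted p = 0.0216), and without the block the adjusted p-values were 0.263 and 0.208. Clone 2 was lowest of the clones in every condition for each of the 3 genes.

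Nop16, a large subunit factor, was called with the block after washout only. It stood at 37.97, 30.4 and 39.04 CPM untreated, 27.4, 12.4 and 37.3 CPM in doxycycline and 56.3, 30.02 and 42.7 CPM after washout. For Nop16, with the block the log2 fold change was -0.57 ± 0.25 SE for doxycycline against untreated (edgeR adjusted p = 0.123) and 0.80 ± 0.24 SE for washed against doxycycline (adjusted p = 0.0489), and without the block the adjusted p-values were 0.459 and 0.249. The remaining 4 genes of this group, the 5-methylcytosine writer Nop2, the 5S particle assembly factor Rrs1, the helicase Ddx21 and the rRNA processing factor Mybbp1a, passed in neither fit. Their log2 fold changes in doxycycline ran from -0.39 for Mybbp1a to 0.19 for Ddx21, which stood at 268, 196 and 425 CPM untreated, 363, 190.0 and 464 CPM in doxycycline and 671, 160.4 and 439 CPM after washout.

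The PeBoW complex, which is needed to process the large subunit precursor, has the 3 members Bop1, Pes1 and Wdr12, and their values differed. Wdr12 stood at 64.8, 48.1 and 75.7 CPM untreated, 44.03, 18.3 and 38.1 CPM in doxycycline and 123, 52.7 and 72.6 CPM after washout. It was lowest in doxycycline in each clone, and with the block the log2 fold change was -0.99 ± 0.21 SE for doxycycline against untreated (edgeR adjusted p = 0.0133) and 1.32 ± 0.21 SE for washed against doxycycline (adjusted p = 0.00511); without the block the adjusted p-values were 0.168 and 0.0672. Bop1 stood at 62.00, 45.5 and 134 CPM untreated, 93.3, 62.2 and 116 CPM in doxycycline and 157, 40.7 and 127 CPM after washout, with doxycycline above untreated in clones 1 and 2 and below it in clone 4 (log2 fold change 0.17 ± 0.52 SE, adjusted p = 0.87 by edgeR). Bop1 shares 2058 bases of its span with Scx in RefSeq, which the counting may not separate. Pes1 had a log2 fold change of -0.12 in doxycycline and was not called (adjusted p = 0.769 by edgeR). A difference between the members of the complex was not tested.

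**Figure D3:**
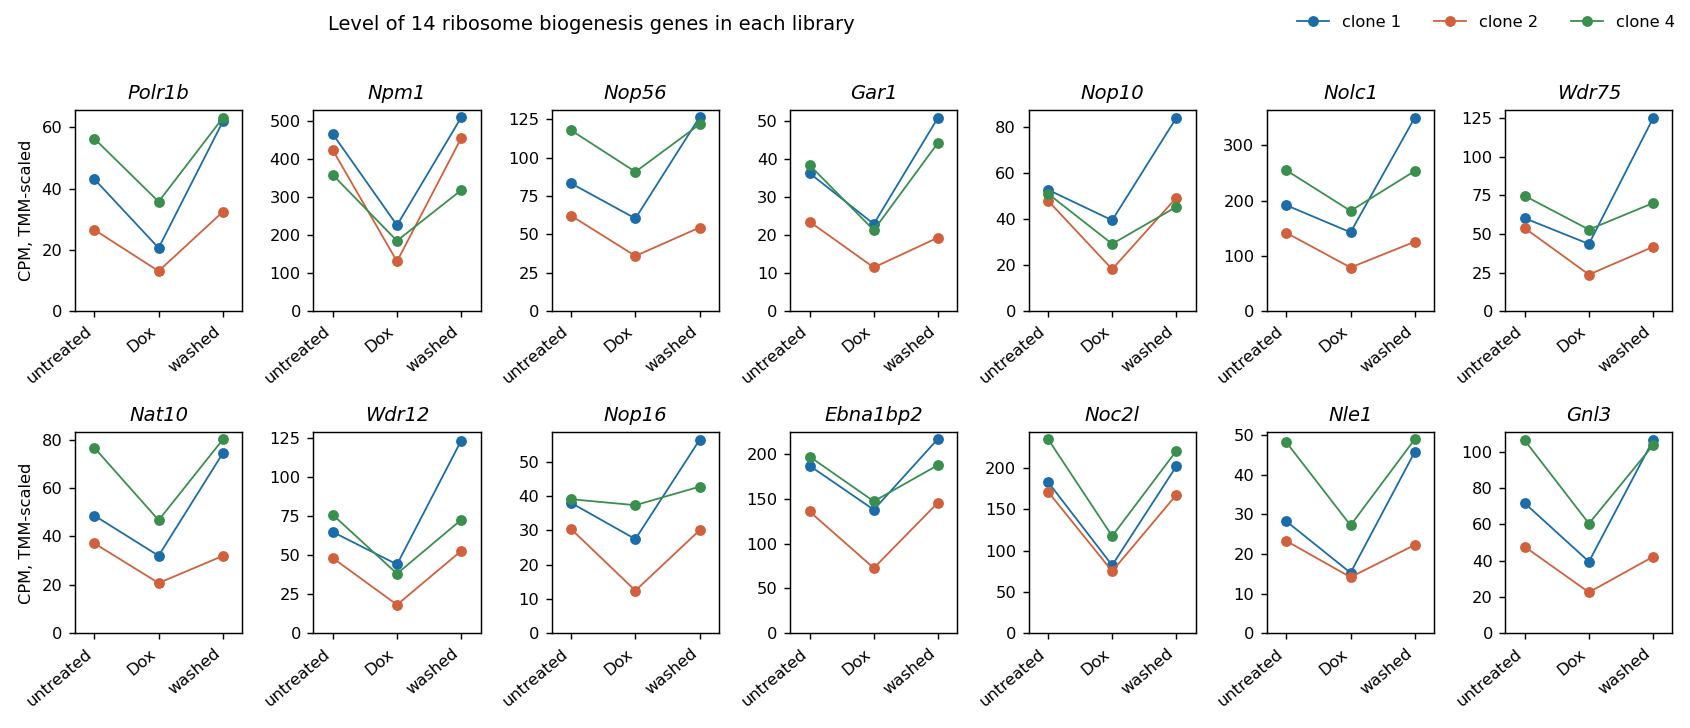
CPM scaled by TMM (y axis, from 0) in untreated, doxycycline and washed cells (x axis) for the 14 genes called in at least 1 comparison without or with the clone block, 1 line per clone. Doxycycline is the lowest point of every line, and the clone 2 line is the lowest in all 3 conditions in all panels except Npm1 and Nop10.

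The box H/ACA particle pseudouridylates rRNA and also stabilises telomerase RNA. Of its 4 core proteins, the structural subunits Gar1 and Nop10 were called with the block, and the pseudouridine synthase Dkc1 and the subunit Nhp2 were not. Nop10 stood at 52.8, 48.1 and 51.1 CPM untreated, 39.5, 18.3 and 29.3 CPM in doxycycline and 84.1, 49.4 and 45.4 CPM after washout. For Nop10, with the block the log2 fold change was -0.87 ± 0.22 SE for doxycycline against untreated (edgeR adjusted p = 0.0226) and 1.04 ± 0.21 SE for washed against doxycycline (adjusted p = 0.0119), and without the block the adjusted p-values were 0.134 and 0.0699. The doxycycline values lay below all others. Gar1 stood at 36.3, 23.5 and 38.4 CPM untreated, 22.9, 11.5 and 21.3 CPM in doxycycline and 50.9, 19.4 and 44.3 CPM after washout. For Gar1, with the block the log2 fold change was -0.85 ± 0.18 SE for doxycycline against untreated (edgeR adjusted p = 0.0116) and 1.00 ± 0.18 SE for washed against doxycycline (adjusted p = 0.00671), and without the block the adjusted p-values were 0.22 and 0.136. Dkc1 stood at 102, 61.6 and 98.2 CPM untreated, 84.96, 29.5 and 92.2 CPM in doxycycline and 212, 57.1 and 98.99 CPM after washout, so that clone 2 went to 0.479 of its untreated level while clone 4 stayed at 0.938 of it (log2 fold change -0.34 ± 0.52 SE, adjusted p = 0.719 by edgeR). Nhp2 had a log2 fold change of -0.23 in doxycycline (adjusted p = 0.675). Nolc1, a chaperone of both particle classes, stood at 192, 142 and 255 CPM untreated, 143, 79.1 and 182 CPM in doxycycline and 350.4, 126 and 254 CPM after washout and was called after washout with the block. For Nolc1, with the block the log2 fold change was -0.60 ± 0.21 SE for doxycycline against untreated (edgeR adjusted p = 0.0752) and 0.84 ± 0.21 SE for washed against doxycycline (adjusted p = 0.0271), and without the block the adjusted p-values were 0.437 and 0.229.

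The box C/D particle methylates rRNA and holds the methyltransferase Fbl and the scaffold proteins Nop56 and Nop58. Nop56 stood at 83.3, 62.2 and 118 CPM untreated, 60.4, 35.99 and 90.8 CPM in doxycycline and 126, 54.5 and 122 CPM after washout. For Nop56, with the block the log2 fold change was -0.54 ± 0.18 SE for doxycycline against untreated (edgeR adjusted p = 0.0578) and 0.70 ± 0.18 SE for washed against doxycycline (adjusted p = 0.0257), and without the block the adjusted p-values were 0.484 and 0.328. Doxycycline was the lowest condition in each clone, but clone 4 in doxycycline lay above untreated clones 1 and 2. Nop58 stood at 211, 182 and 259 CPM untreated, 215, 105 and 239.6 CPM in doxycycline and 398, 163 and 243 CPM after washout, which gave clone ratios of 1.02, 0.577 and 0.926 to untreated, and was not called (log2 fold change -0.22 ± 0.38 SE, adjusted p = 0.75 by edgeR). Fbl was low, between 6.09 and 15.9 CPM in all libraries, and was not called (adjusted p = 0.603). RefSeq lists a pseudogene of it, Fbl-ps2, and reads shared with copies may have been dropped or moved.

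The small subunit processome gave 9 of the 39 genes, and 0 were called without the block in either comparison. Nat10, the rRNA acetyltransferase, stood at 48.6, 37.2 and 76.6 CPM untreated, 32.03, 20.8 and 46.7 CPM in doxycycline and 74.4, 31.98 and 80.02 CPM after washout. For Nat10, with the block the log2 fold change was -0.73 ± 0.17 SE for doxycycline against untreated (edgeR adjusted p = 0.0198) and 0.89 ± 0.17 SE for washed against doxycycline (adjusted p = 0.00973), and without the block the adjusted p-values were 0.317 and 0.209. Wdr75, a subunit that links transcription to processing, stood at 60.2, 53.8 and 74.6 CPM untreated, 43.5, 23.7 and 52.8 CPM in doxycycline and 125, 41.7 and 69.99 CPM after washout and was called with the block after washout only (adjusted p = 0.0406, and 0.0835 for doxycycline against untreated). In both genes doxycycline was the lowest condition in each clone, with clone 2 lowest throughout. Heatr1, a scaffold in the same subcomplex as Wdr75, gave a flat series in doxycycline, with 53.4, 28.3 and 77.9 CPM untreated, 56.1, 29.2 and 77.1 CPM in doxycycline and 138, 28.2 and 87.1 CPM after washout (log2 fold change 0.03 ± 0.57 SE, adjusted p = 0.982 by edgeR). The other 6, Wdr43, Utp20, Rrp9, Nop14, Imp4 and Mphosph10, had log2 fold changes from -0.32 to -0.06 in doxycycline and were not called in either fit.

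The 3 genes of pre-40S maturation and export, Rrp12, Ltv1 and Tsr1, were the only role with a positive median in doxycycline, 0.26, and 0 were called in either fit. Tsr1, a GTPase-like factor of late small subunit particles, had the smallest p and stood at 29.2, 22.7 and 33.8 CPM untreated, 42.4, 18.3 and 57.6 CPM in doxycycline and 50.9, 17.2 and 35.6 CPM after washout (log2 fold change 0.47 ± 0.46 SE, adjusted p = 0.556 by edgeR). It was above untreated in clones 1 and 4 and below it in clone 2. Tsr1 shares 5314 bases of its span with Srr in RefSeq. Ltv1 stood at 75.03, 62.2 and 109 CPM untreated, 117, 64.7 and 114 CPM in doxycycline and 141, 64.5 and 104 CPM after washout, with doxycycline above untreated in every clone. Rrp12 had a log2 fold change of -0.02 (adjusted p = 0.989).

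RNA polymerase I was represented by 3 subunits and 2 initiation factors. Polr1b, a subunit of the catalytic core, stood at 43.1, 26.6 and 56.3 CPM untreated, 20.6, 13.1 and 35.8 CPM in doxycycline and 61.9, 32.5 and 63.1 CPM after washout. For Polr1b, with the block the log2 fold change was -0.90 ± 0.17 SE for doxycycline against untreated (edgeR adjusted p = 0.00873) and 1.23 ± 0.17 SE for washed against doxycycline (adjusted p = 0.00287), and without the block the adjusted p-values were 0.226 and 0.114. Polr1c, a subunit shared with RNA polymerase III, had the smallest p of this role without the block and stood at 40.2, 37.5 and 37.2 CPM untreated, 30.5, 25.9 and 26.8 CPM in doxycycline and 40.1, 43.5 and 31.4 CPM after washout (log2 fold change -0.46 ± 0.18 SE, adjusted p = 0.128 by edgeR). Its doxycycline libraries lay below all others and its clones were close to each other, but it was not called in either fit. Polr1a, the largest subunit, had clone ratios of 0.682, 0.691 and 0.770 and was not called (adjusted p = 0.516). The initiation factors passed in neither fit. Rrn3, which recruits the polymerase, had a log2 fold change of 0.21 (adjusted p = 0.679), and Ubtf, the upstream binding factor that keeps ribosomal DNA open, one of -0.17 (adjusted p = 0.666).

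Of a list of 112 other ribosome biogenesis genes, 5 (4.46%) were called lower in doxycycline against 4.35% of all genes, 0 were called higher, and the median log2 fold change was -0.23. With the block 14 (12.5%) were lower against 11.7% of all genes, and 1 (0.893%) higher against 13%. After washout 4 (3.57%) were higher against 3.64% of all genes, 0 were lower against 6.02%, and the median was 0.43. With the block 29 (25.9%) were higher against 10.4% of all genes, and 0 lower against 12.4%. Ppan, a large subunit factor, went from 97.2 ± 9.91 to 48.6 ± 11.2 CPM in doxycycline and 94.0 ± 5.70 CPM after washout (SD, n = 3 per group, adjusted p = 0.0139 and 0.0195 by edgeR). Nob1, the nuclease that makes the last cut of small subunit rRNA, went from 93.8 ± 3.17 to 48.9 ± 12.4 and 90.6 ± 9.94 CPM (SD, n = 3 per group, adjusted p = 0.0214 and 0.0286 by edgeR). Naf1, which loads the box H/ACA particle before Gar1 replaces it, went from 33.8 ± 4.80 to 12.6 ± 4.48 and 37.3 ± 12.7 CPM (SD, n = 3 per group, adjusted p = 0.0252 and 0.0198 by edgeR). Ruvbl2, an ATPase of particle assembly, and Exosc8, an exosome subunit, were called in doxycycline only (adjusted p = 0.0494 and 0.0433 by edgeR), and Las1l, an endonuclease, after washout only (adjusted p = 0.0293 by edgeR).

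The third comparison asked whether washed cells return to the untreated level. Of the 39 genes 0 were called by edgeR and 0 by DESeq2, as were 0% of the 12004 genes tested, and 0 of the 39 and 38 of all genes had an unadjusted p under 0.05. The median log2 fold change of the 39 was 0.28, with all 39 values positive, but its size rested on 1 library. Without washed clone 1 the median was -0.019, and 0.013 when the clone was also a block. With the block and all libraries it was 0.22. Within clones the median log2 ratio of washed to untreated was 0.71 in clone 1, -0.11 in clone 2 and -0.01 in clone 4. Washed exceeded untreated for 38 of 39 genes in clone 1, the exception being Polr1c, for 13 in clone 2 and for 18 in clone 4. In all genes tested it did so for 50.4%, 50.6% and 49.6%.

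Washed clone 1 thus stood apart. It had the highest value of all 9 libraries for 32 of the 39 genes (82.1%), against 24.1% of all genes tested, and its 39 genes summed to 9128 CPM where the other libraries summed to 2775 to 6483 CPM. Utp20, named here for its large value, stood at 50.3, 29.6 and 94.3 CPM untreated, 58.7, 20.4 and 66.00 CPM in doxycycline and 188, 25.4 and 93.7 CPM after washout. Mybbp1a, likewise chosen by its value, stood at 338, 234 and 432 CPM untreated, 262, 148 and 356 CPM in doxycycline and 716, 213 and 424 CPM after washout. Both were higher in washed clone 1 than in any other library. In the same library the granulocyte precursor gene Mpo stood at 1720 CPM, against 50.04 to 82.7 CPM in the other untreated and washed libraries, Cd3g at 8.38 CPM against 83.1 to 211 CPM, and the myeloid list at 3197 CPM against 1897 to 2409 CPM. Mpo carried that sum: without it the list stood at 1477 CPM in washed clone 1, below the 1815 to 2329 CPM of the others. Csf2rb was lowest there, at 485 CPM against 1117 to 1832 CPM, and so was Fcgr3, at 291 CPM against 299 to 381 CPM. Elane, Prtn3 and Cebpa were highest there, at 203, 300 and 109 CPM. The other untreated and washed libraries held 19.6 to 66.4, 70.2 to 141 and 17.6 to 43.1 CPM of these. Spi1 at 52.0 CPM was near its untreated value of 48.1 CPM. The part of these differences in the level of ribosome biogenesis genes was not tested, and with 1 library per clone and condition this one has no replicate.

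**Figure D4:**
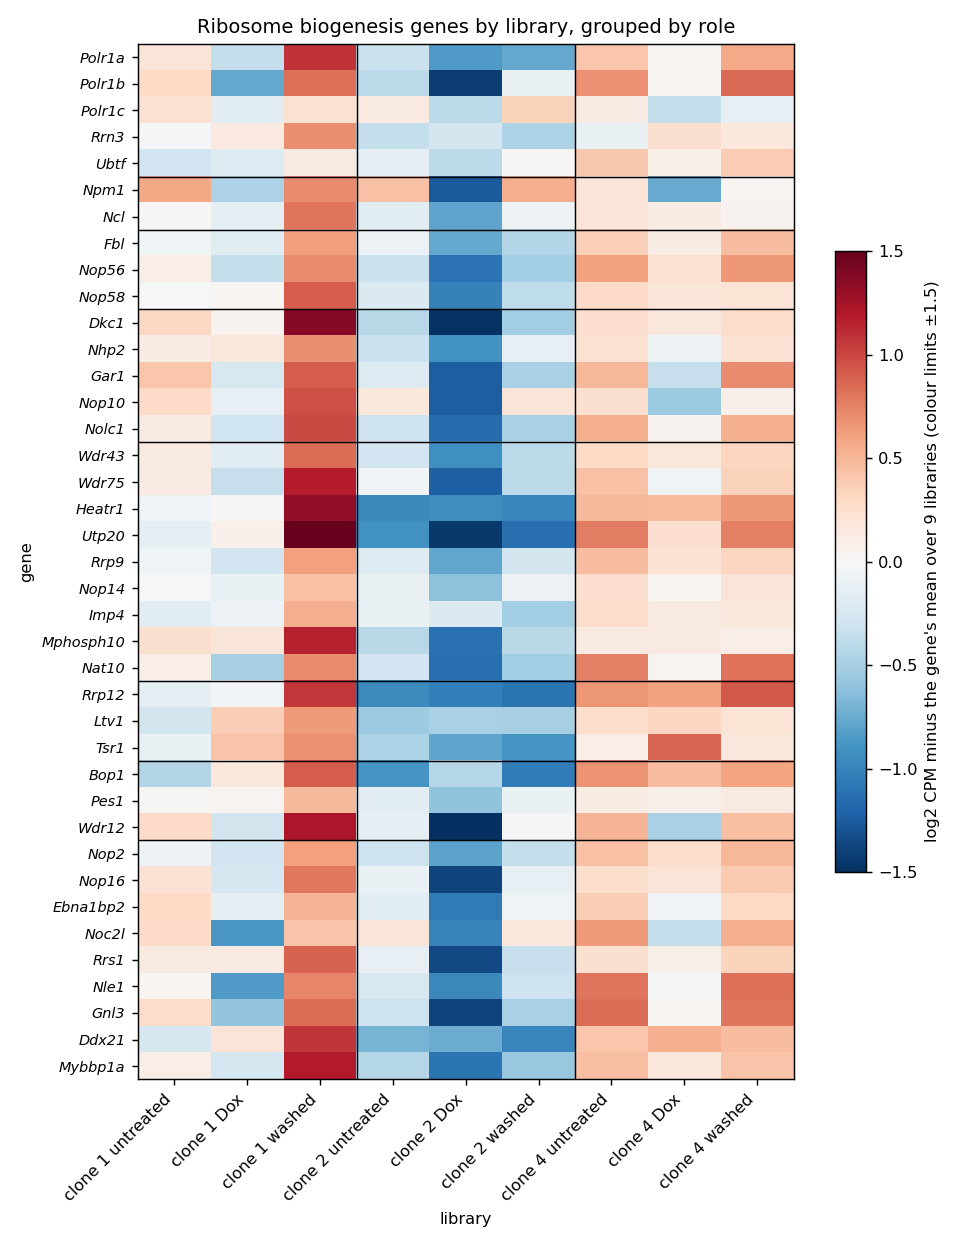
Log2 CPM of each of the 39 genes (rows, grouped by role between black lines) minus its mean over the 9 libraries (columns, grouped by clone), with red above and blue below the mean and colours limited at ±1.5. Washed clone 1 is red in every row, doxycycline clone 2 is blue in every row, and clone 4 is mostly red.

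The clones were also compared at equal treatment. Clone 2 had the lowest level of the 3 clones in all 3 conditions for 34 of the 39 genes (87.2%), against 19.1% of all genes tested; the exceptions were Npm1, Nop10, Imp4, Ubtf and Polr1c. Clone 2 was lowest untreated for 35 genes, against 36% of all genes, and in doxycycline for all 39, against 40.7%. Doxycycline clone 2 was the lowest of all 9 libraries for 31 genes, against 19.6% of all genes. Clone 4 was highest of the clones for 33 genes untreated, against 35.3% of all genes, and for 30 in doxycycline, against 24.4%. The median difference over the 39 genes was -0.78 log2 units for clone 2 minus clone 1, 0.80 for clone 4 minus clone 2 and 0.00 for clone 4 minus clone 1. Without washed clone 1 these were -0.59, 0.79 and 0.33.

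In the test of the clone terms beside the groups, 0 of the 39 genes and 0% of all 12004 genes were called by edgeR, with the smallest adjusted p of the 39 at 0.0505. An unadjusted p under 0.05 was reached by 35 of the 39 (89.7%) against 37.5% of all genes. The call stood at the edge of the threshold: 27 of 39 were called without washed clone 1 (14.6% of all genes), 28 without untreated clone 1 (29.8%), 24 with no filter (9.46%), 11 with library size alone (9.5%) and 1 with RLE size factors (0.616%). Gnl3 had the smallest adjusted p of the 39 with all libraries. A further test asked whether the change between hairpin states differed between clones, with untreated and washed libraries pooled as 1 state. Its spread was the gap between these libraries within a clone, with a median of 0.71 log2 units over the 39 genes in clone 1. The test called 0 of 39 genes and 0% of all genes, which does not show that the clones responded alike. An unadjusted p under 0.05 was reached by 1 of the 39 and 407 of all genes. It called 15 of 39 without washed clone 1 (20.4% of all genes) and 29 without untreated clone 1 (33.9%), when clone 1 has 1 library in each state and only clones 2 and 4 give a spread.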

How the data were processed

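Per the labels, sorted cells were lysed and total RNA was taken with a QIAGEN RNeasy plus mini kit for Illumina libraries. The submitters' processing notes name CASAVA 1.8.2 with featureCounts, the R packages edgeR 3.8.2 and limma 3.22.0, and mm10. Aligner, annotation version and strand setting: not given in the sources used here. Per the file headers, each deposited table gives raw counts by Entrez gene and a gene length. Symbols came from RefSeq (GRCm38.p6) for 25275 of 27179 entries.

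Genes were filtered with filterByExpr, scaled by TMM and tested with edgeR 4.0.16 in R 4.3.3, fitting a mean per group to all 9 libraries. The SE was derived from the log2 fold change and the root of F, with a prior count of 2 for log2 CPM. DESeq2 1.42.0 and limma 3.58.1 (voom) were alternatives, beside other scalings, filters, the clone block and left-out libraries. The pipeline was also run on counts simulated without clone differences, so that run cannot show how such differences affect the calls. The clone number pairs libraries, since each clone is 1 cell line. Deviations from group means correlated at 0.29 to 0.68 in the 9 same-clone pairs. In pairs of different clones the correlation ran from -0.69 to 0.32. The ranges overlapped only through doxycycline clone 2 with washed clone 4, at 0.32. No 2 libraries agreed within sampling noise (chi-square per df of at least 3.47), so each counted once. Values per library are printed for genes called in a comparison of groups with all libraries, with or without the block, and for the gene of smallest p in each role; other genes shown by library were chosen after their values were seen. The genes, lists and tests were chosen with earlier results of these data known. Since the 3 clones come from 1 line, p-values cover only the spread among them.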

Additional observations from a re-analysis of the deposited data

How the results depend on the processing

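With the clone as a replicate block, 10 of the 39 genes were called lower in doxycycline (25.6% against 11.7% of all genes). After washout 14 were called higher (35.9% against 10.4%). Without the block the counts were 2 (5.13% against 4.35%) and 2 (5.13% against 3.64%). Leaving out 1 clone in turn gave 0 to 1 lower and 0 to 1 higher without the block (all genes 0% to 2.87% and 0.00829% to 3.29%), and 1 to 16 lower and 2 to 15 higher with it (all genes 1.17% to 16.2% and 0.994% to 17%). Scaling by library size alone gave 0 lower and 0 higher, against 2.14% and 2.02% of all genes. It moved the median of the 39 in doxycycline to -0.045 and that of all genes to 0.23. Removing the entry that was high in untreated clone 1 left 2 lower (5.13% against 4.35% of all genes) and 2 higher (5.13% against 3.64%). The medians of the 39 were then -0.32 in doxycycline and 0.61 after washout. DESeq2 called 5 higher after washout (12.8% against 7.46% of all genes), and a fit of the 2 groups alone 0 (against 0.799%). Without untreated clone 1 the count called lower in doxycycline was 0, against 0.894% of all genes. With the block it was 13 lower (33.3% against 8.98%) and 20 higher after washout (51.3% against 13.8%). Without washed clone 1 the blocked counts were 16 lower (41% against 18.5%) and 12 higher (30.8% against 14.8%). The median for washed against untreated was -0.019 without washed clone 1, and 0.013 in that setting with the block. It was -0.051 with the block and without clone 1. Without the block it ran from -0.031 to 0.41 with 1 clone left out.

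For clone differences, 1 gene was called with RLE size factors, 11 with library size alone, 24 with no filter, 28 without untreated clone 1 and 27 without washed clone 1, against 0. For the clone response, 29 were called without untreated clone 1 (33.9% of all genes) and 15 without washed clone 1 (20.4%), against 0 (0%). The settings without washed clone 1, the blocked fits that leave out a clone and the clone tests without untreated clone 1 were chosen after seeing the data. The cause of these changes was not tested. Depth limits Fbl most, the gene with the lowest count per library.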

Other observations

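Of the 39 genes, 7 hold snoRNA genes within their bodies in RefSeq, 19 in all, among them Nop56 with 5 and Nop58 with 4. The files have entries under the same symbol for 11 of these snoRNAs, and each had between 0 and 11 counts in any library, so their levels could not be compared with those of the host genes.

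Within the box C/D particle the mean level per length differed widely between partners, at 9.29 RPKM for Fbl, 44.2 RPKM for Nop56 and 113 RPKM for Nop58. Within the box H/ACA particle it was 23.5 RPKM for Gar1, 33.2 RPKM for Dkc1, 66.8 RPKM for Nop10 and 124 RPKM for Nhp2.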
